A study of Mus musculus with 9 samples.

Results

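The 10 genes described here encode Polycomb proteins: the Polycomb-like subunits Phf19, Mtf2 and Phf1, the cofactor Jarid2, the Polycomb repressive complex 2 (PRC2) core subunits Ezh2, Ezh1, Eed and Suz12, and the chromodomain proteins Cbx7 and Cbx2. They were taken by symbol from a table of 37975 genes, and all 10 have 1 row each. Their levels were read as FPKM (fragment number divided by transcript length and library depth) in 9 RNA sequencing libraries of mouse stem cells, 1 library per group. Embryonic stem cells of the wild-type line R1 (ESC) and XEN cells of the wild-type line IM8AR, stem cells of the extraembryonic endoderm that serve as a culture model of the primitive endoderm, received no doxycycline (dox). The other 7 libraries come from 1 ESC line, labelled 4J, in which dox turns on the endoderm transcription factor Sox17. They are the line without dox, after 7, 21, 35 and 49 h and 6 days in 100 ng/ml dox, and the derived Sox17-XEN cells, whose label names 30 days with and 30 days without dox in wording that leaves the order unclear, while its description reads dox-indep. The day 6 label adds the word SORT. Serum was in all media. ESC were given LIF and a layer of mouse fibroblast feeders, and XEN cells medium conditioned by such feeders. There was no library without dox at the later times, and with 1 library per group no value has a replicate error.

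PRC2 places methyl groups on lysine 27 of histone H3 (H3K27me3), a mark of silenced developmental genes. Ezh2 or Ezh1 is its catalytic subunit, and Eed and Suz12 are needed for its activity and stability. A Polycomb-like protein (Phf1, Mtf2 or Phf19) joins PRC2 in place of Jarid2 and Aebp2, binds CpG-rich DNA and helps to bring PRC2 to CpG islands, and its Tudor domain can bind histone H3 methylated on lysine 36. Polycomb repressive complex 1 (PRC1) ubiquitinates histone H2A. Its canonical forms hold a Cbx protein whose chromodomain reads H3K27me3, and Cbx7 is the best known of these in ESC.

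The labels were checked against marker genes. R1 ESC held 0.163 FPKM of Sox17 and the uninduced Sox17 line 0.909 FPKM, while the 5 libraries on dox ranged from 71.1 (day 6) to 283 FPKM (7 h). The 9 ESC markers with a value in every library summed to 2237 to 5002 FPKM from R1 ESC to 49 h and 15.7 and 15.9 FPKM in Sox17-XEN and wild-type XEN. At day 6, 8 of the 9 were lower than without dox by at least 1 log2 unit (median -4.56), with Nanog at 1.89 and Sox2 at 1.84 FPKM, while Dppa5a (1733 FPKM) and Pou5f1 (325 FPKM) made up most of a sum of 2182 FPKM. The 8 endoderm markers with a value in every library summed to 6.38 and 16.8 FPKM in the ESC libraries without dox, 239 to 305 FPKM from 7 to 49 h, Sox17 included, and 2741, 1823 and 1744 FPKM at day 6, in Sox17-XEN and in wild-type XEN. Sox17, which dox turns on, made up most of the early sums, with 283 of 293 FPKM at 7 h and 151 of 275 FPKM at 49 h. Of 10 endoderm markers tested, Sox17 among them, 2, 5, 6 and 8 were at least 1 log2 unit above no dox at 7, 21, 35 and 49 h. Of all genes, 3.03%, 5.08%, 4.62% and 5.54% were past 1 log2 unit in either direction. The 8 cycling markers summed to between 793 FPKM (day 6) and 1123 FPKM (wild-type XEN). The 12 fibroblast markers, which stand for the feeder cells, summed to 1062 FPKM in R1 ESC, 2057 FPKM without dox, 1077, 1423, 1800 and 2788 FPKM at 7, 21, 35 and 49 h, 179 FPKM at day 6, 745 FPKM in Sox17-XEN and 16.7 FPKM in wild-type XEN. In bulk RNA, fewer cells of a type and less RNA per cell cannot be told apart.

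Below, a difference is taken on the scale of log2(FPKM + 1), and "higher" or "lower" by the call means at least 1 log2 unit between 2 single libraries, which carries no p-value. As a yardstick, 95% of the 8031 genes at 5 FPKM or more in both uninduced ESC lines differed by a value between -0.90 and 1.01 from line to line. None of the 10 genes (0 of 10) was past 1 log2 unit in that comparison, where 5.36% of all genes were.

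These promoters are shown because their genes, Phf19, Ezh1 and Cbx7, had the largest differences among the 10 at 3 different stages. Each is the 250 bases upstream of the annotated start, 5′ to 3′ on the gene's strand, from the RefSeq promoter table for GRCm38.p6, with CpG dinucleotides in capitals. Phf19 is at chr2:34913977-34914226, Ezh1 at chr11:101226464-101226713 and Cbx7 at chr15:79932647-79932896, all on the minus strand.

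Phf19: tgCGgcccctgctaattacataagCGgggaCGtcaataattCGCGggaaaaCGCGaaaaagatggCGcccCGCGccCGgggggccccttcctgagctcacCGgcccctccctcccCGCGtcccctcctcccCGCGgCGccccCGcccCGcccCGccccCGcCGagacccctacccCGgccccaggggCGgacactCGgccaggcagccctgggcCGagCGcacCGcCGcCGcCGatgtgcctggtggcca
Ezh1: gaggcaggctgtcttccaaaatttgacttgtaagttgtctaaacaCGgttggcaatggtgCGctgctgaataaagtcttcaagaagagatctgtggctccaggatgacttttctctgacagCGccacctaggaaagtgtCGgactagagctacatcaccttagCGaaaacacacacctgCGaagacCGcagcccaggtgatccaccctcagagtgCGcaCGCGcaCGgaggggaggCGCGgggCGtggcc
Cbx7: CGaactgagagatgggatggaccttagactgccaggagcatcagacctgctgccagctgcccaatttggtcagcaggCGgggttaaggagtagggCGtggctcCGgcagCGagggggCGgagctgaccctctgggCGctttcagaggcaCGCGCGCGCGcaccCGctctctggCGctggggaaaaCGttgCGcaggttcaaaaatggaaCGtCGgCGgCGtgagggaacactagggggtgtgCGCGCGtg

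The Phf19 window is the most CpG-rich of these, with 31 CpG and 75.2% G and C, and 94.8% of 32851 windows of this length held fewer CpG. The Cbx7 window held 23 CpG (64.8% G and C) and the Ezh1 window 14 (55.2%), against a median of 6 CpG and 52.4% over all windows. The table matched 9 of the 10 genes with 11 windows, and Suz12 was the member with the most CpG (37). The letters ACAAT, the core of the motif that SOX proteins bind, were searched on both strands (ATTGT on the other). They were in none of the 3 windows printed, and in 3 of the 11 windows, 1 of Jarid2 and both of Mtf2, against 27.7% of all windows. A match or its lack in these windows says nothing about binding. No chromatin or binding data were analysed here, and the RefSeq start of Phf19 need not be the start used in these cells. Of the 11 entries, that of Phf19 alone had a downstream end that was not found in the gene's own annotated transcripts.

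Phf19 (ENSMUSG00000026873, mm9 chr2:34749277-34771534) had the widest early difference of the 10 genes. The uninduced libraries held 5.93 (R1 ESC) and 6.13 FPKM (no dox), and those at 7, 21, 35 and 49 h held 39.8, 64.1, 60.5 and 52.5 FPKM. The level was 0.470 FPKM at day 6, 0.0629 FPKM in Sox17-XEN and 0.282 FPKM in wild-type XEN. The 4 libraries of the first 49 h thus stand above the 2 uninduced ESC libraries with no overlap, and the day 6, Sox17-XEN and wild-type XEN libraries stand below both. Phf19 was singled out for its early rise, so these levels are a description, and its value in the early fit across all genes is left out.

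Against no dox the differences of Phf19 were 2.52, 3.19, 3.11 and 2.91 log2 units at the 4 early times in order, a 6.50-fold ratio in FPKM at 7 h and 10.5-fold at 21 h. At 7 h, 99.6% of all genes had a smaller difference, and at 21 h 99.8%, ranks that only describe a gene singled out for its early rise. The further steps were small, with 0.67 log2 units from 7 to 21 h, -0.08 from 21 to 35 h and -0.20 from 35 to 49 h. Phf19 was already past the call in the first library on dox, and for neighbouring times from 7 to 49 h 0 of the 10 genes differed by 1 log2 unit, where 3.12%, 1.09% and 1.37% of all genes did in the 3 steps. Between 49 h and day 6 the difference was -5.18, a 112-fold ratio in FPKM, and 0.1% of genes had a lower value. The difference of day 6 from no dox was -2.28, so the day 6 library lay under the ESC level and not only back at it. The day 6 label adds SORT, and the fibroblast markers summed to 179 FPKM there, 2057 FPKM without dox and 2788 FPKM at 49 h. Time, sorting and feeder content cannot be told apart in these 2 differences, and their part was not tested.

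The authors' lower confidence bound is 0 for all 90 values of the 10 genes, so their intervals overlap between any 2 libraries, whatever the levels. The upper bound for Phf19 was 17.2 FPKM without dox and 99.3 FPKM at 7 h. The predicted gene Gm13448 has the same listed locus and had 0.0739 FPKM without dox, 2.23 at 7 h and 0.0212 at day 6. The use of strand is not stated, so reads of the pair may not be separable.

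**Figure D1:**
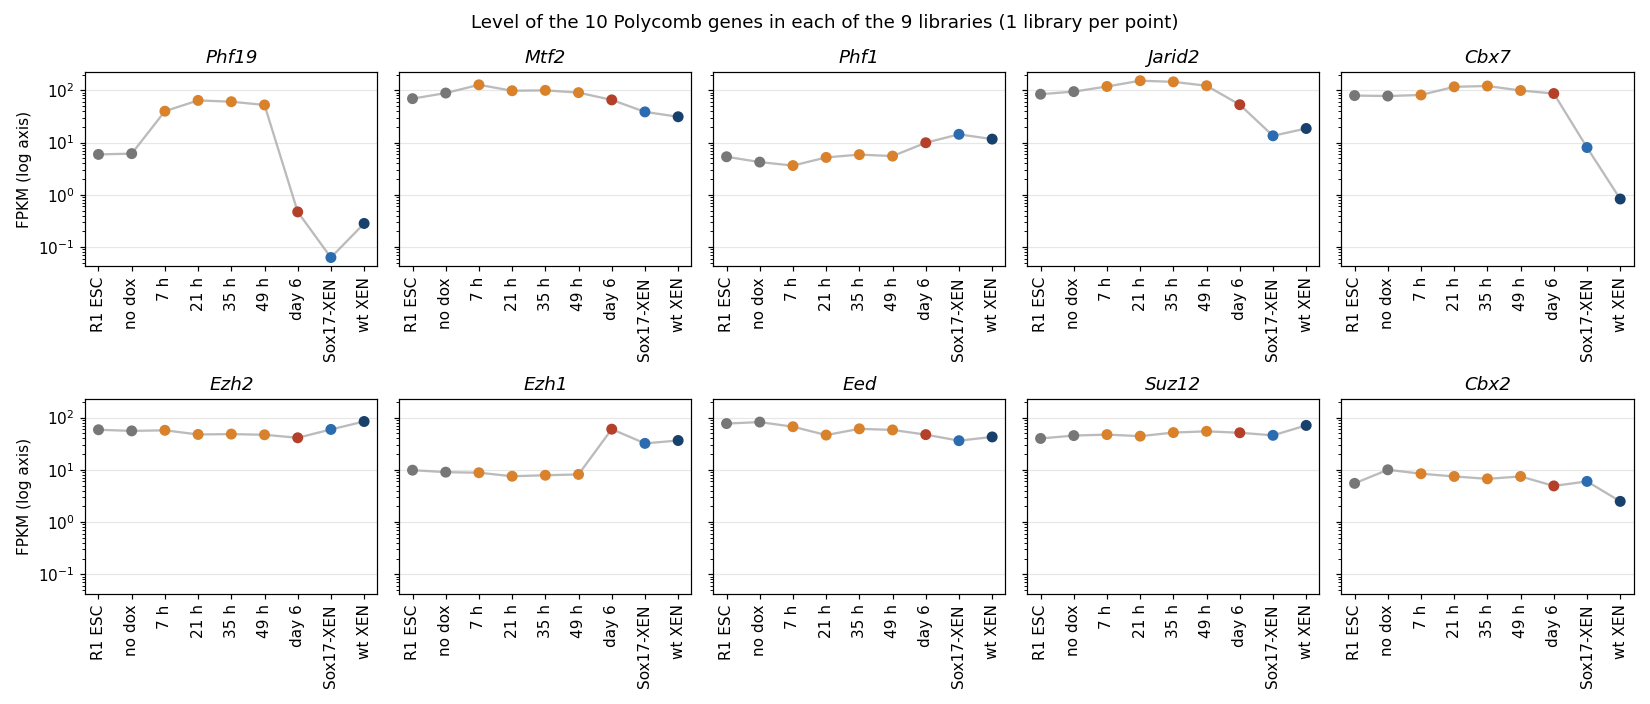
FPKM (log axis) of each of the 10 Polycomb genes in the 9 libraries, 1 point per library; grey lines only join the points, since the first and the last library belong to other lines. Phf19 is high at 7 to 49 h (39.8 to 64.1 FPKM) and under 0.5 FPKM in the last 3 libraries, Ezh1 is high from day 6 on, and Cbx7 drops only in the 2 XEN lines.

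Mtf2 (ENSMUSG00000029267, mm9 chr5:108494693-108561639), the major Polycomb-like subunit of ESC, was the most abundant of the 3 in every library. It was at 69.3 FPKM in R1 ESC, 88.6 FPKM without dox, 127, 98.1, 99.8 and 90.2 FPKM at 7, 21, 35 and 49 h, 65.6 FPKM at day 6, 38.6 FPKM in Sox17-XEN and 31.2 FPKM in wild-type XEN. Its highest value was at 7 h, 0.52 log2 units above no dox and short of the call, and it was lowest in the 2 XEN lines. Its locus is shared with Tmed5, a gene at 26.8 to 41.2 FPKM.

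Phf1 (ENSMUSG00000024193, mm9 chr17:27070072-27074835) was highest where Mtf2 was lowest, in the XEN lines. It was at 5.35 FPKM in R1 ESC, 4.23 FPKM without dox, 3.62, 5.19, 5.87 and 5.50 FPKM at 7, 21, 35 and 49 h, 9.91 FPKM at day 6, 14.4 FPKM in Sox17-XEN and 11.6 FPKM in wild-type XEN. It was higher than without dox at day 6 (1.06 log2 units, and 0.85 after the libraries were rescaled to a common median) and in Sox17-XEN (1.56). The early libraries overlap the uninduced ones.

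The share of each Polycomb-like gene in their summed FPKM does not depend on the scale of a library. Phf19 made up 7.4% of the sum in R1 ESC, 6.2% without dox, 23.3%, 38.3%, 36.4% and 35.4% from 7 to 49 h, 0.6% at day 6, 0.1% in Sox17-XEN and 0.7% in wild-type XEN. Mtf2 went from 89.5% without dox to 58.6% at 21 h while its own FPKM was not lower, and stood at 86.3% at day 6. Phf1 made up 2.1% to 6.6% up to 49 h, 13.1% at day 6 and 27.1% in Sox17-XEN and 27.01% in wild-type XEN. The sum itself was 99.0 FPKM without dox, 171 and 167 FPKM at 7 and 21 h, and 53.0 and 43.1 FPKM in the 2 XEN lines. In these libraries the early dox state is the one in which Phf19 comes nearest to Mtf2, and the XEN lines the ones in which Phf1 does. Taken from the authors' upper bounds, the share of Phf19 was 15.8% at 21 h and 8.76% at 7 h, since the upper bounds of Mtf2 are wide.

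**Figure D2:**
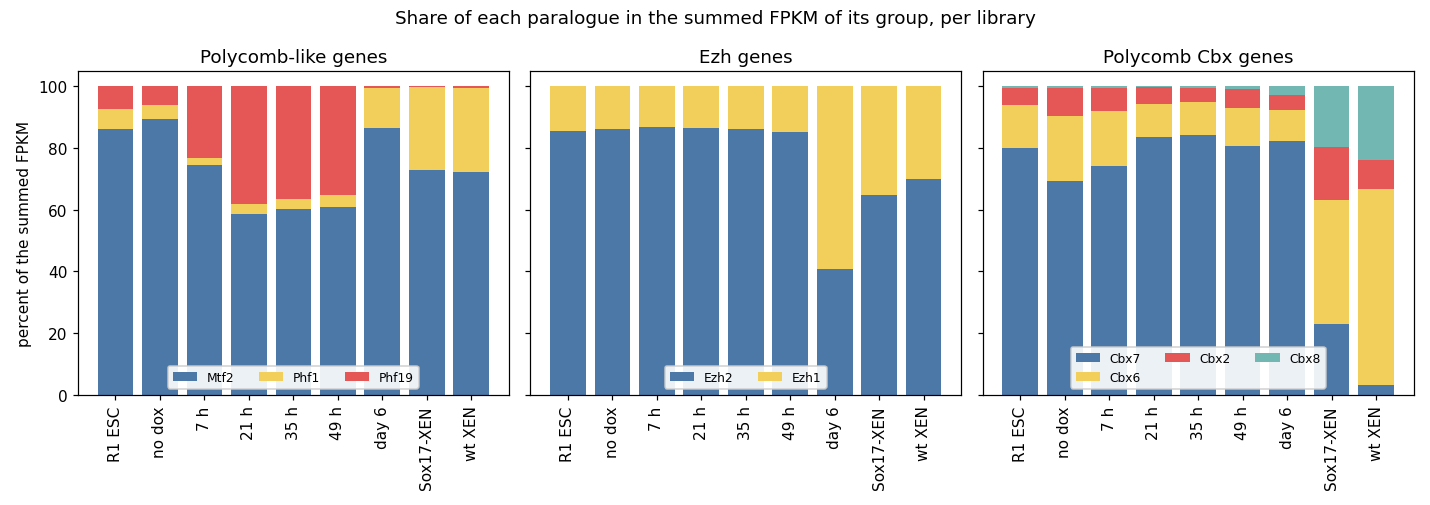
Percent of the summed FPKM held by each paralogue in each library, for the Polycomb-like genes, the Ezh genes and 4 Polycomb Cbx genes (stacked bars, 1 library each). Phf19 widens to 38.3% at 21 h, Ezh1 to 59.4% at day 6, and Cbx7 shrinks to 23.0% and 3.15% in Sox17-XEN and wild-type XEN.

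Jarid2 (ENSMUSG00000038518, mm9 chr13:44824843-45017012), the DNA-binding cofactor of the PRC2 form without Polycomb-like proteins, had the same order of libraries as Phf19 over a smaller range. It was at 84.2 FPKM in R1 ESC, 94.4 FPKM without dox, 118, 153, 145 and 122 FPKM at 7, 21, 35 and 49 h, 53.0 FPKM at day 6, 13.5 FPKM in Sox17-XEN and 18.6 FPKM in wild-type XEN. The 4 early libraries lie above the 2 uninduced ones, but the largest early difference, 0.69 log2 units at 21 h, was short of the call. From 49 h to day 6 it differed by -1.19 and from day 6 to Sox17-XEN by -1.90 log2 units.

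Epop, listed under its older symbol E130012A19Rik, belongs to the PRC2 form that holds the Polycomb-like proteins. It went the other way from both Jarid2 and Phf19. It was at 48.6 FPKM in R1 ESC, 65.2 FPKM without dox, 30.7, 15.9, 19.2 and 27.3 FPKM at 7, 21, 35 and 49 h, 90.3 FPKM at day 6, 109 FPKM in Sox17-XEN and 62.1 FPKM in wild-type XEN. Against no dox E130012A19Rik was lower by the call at every early time, with -1.06 (and -0.96 after rescaling), -1.97, -1.71 and -1.23 from 7 to 49 h. The ratio of Jarid2 to E130012A19Rik in FPKM was 1.45 without dox, 9.59 at 21 h and 0.59 at day 6. Neither gene was below the threshold in the test of the 4 early libraries against the 2 uninduced ones (limma on log2(FPKM + 1), Benjamini-Hochberg over all genes): Jarid2 had 0.58 (SE 0.14, adjusted p = 0.144) and E130012A19Rik -1.28 (SE 0.29, adjusted p = 0.129). Aebp2, of the form with Jarid2, did not follow Jarid2. It was at 45.6 FPKM without dox, 33.9, 31.3, 43.3 and 52.7 FPKM at 7, 21, 35 and 49 h, and 39.0 FPKM at day 6. Sox17-XEN held 80.2 FPKM of Aebp2 and wild-type XEN 80.4 FPKM. Jarid2 and E130012A19Rik thus do not stand for the 2 forms.

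The catalytic subunits parted at day 6. Ezh2 (ENSMUSG00000029687, mm9 chr6:47480273-47545340) was at 58.4 FPKM in R1 ESC, 55.6 FPKM without dox, 57.0, 47.5, 48.2 and 46.8 FPKM at 7, 21, 35 and 49 h, 41.0 FPKM at day 6, 59.2 FPKM in Sox17-XEN and 84.1 FPKM in wild-type XEN. No library of the Sox17 line was 1 log2 unit from no dox, and the values after 7 h and before the XEN state were the lowest. Ezh1 (ENSMUSG00000006920, mm9 chr11:101052429-101087777), whose complex is the weaker methyltransferase and is best known in non-dividing cells, was at 9.83 FPKM in R1 ESC, 9.02 FPKM without dox, 8.79, 7.53, 7.86 and 8.15 FPKM at 7, 21, 35 and 49 h, 59.9 FPKM at day 6, 32.0 FPKM in Sox17-XEN and 36.4 FPKM in wild-type XEN. The first 6 libraries lie between 7.53 and 9.83 FPKM and the other 3 lie above 32.0 FPKM.

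Ezh1 at day 6 was 2.61 log2 units above no dox, and 97.3% of genes had a smaller difference. Its share of the summed Ezh1 and Ezh2 FPKM was 13.4% to 14.8% up to 49 h, 59.4% at day 6, 35.1% in Sox17-XEN and 30.2% in wild-type XEN, so day 6 is the only library with more Ezh1 than Ezh2. From day 6 to Sox17-XEN it was 0.88 log2 units lower, short of the call. The 8 cycling markers summed to 793 FPKM at day 6 and 1015 and 1123 FPKM in the XEN lines, but they did not move together. At day 6, 4 of the 8 (Mcm2, Mcm5, Pcna and E2f1) were lower than without dox by the call, where 30.3% of all genes were past it. Mki67, Top2a, Ccnb1 and Cdk1 were above their level without dox, short of the call. The part of cycling in the Ezh1 and Ezh2 levels was not tested.

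Eed and Suz12 complete the core. Eed (ENSMUSG00000030619, mm9 chr7:97103166-97129493), the subunit that binds H3K27me3, was at 76.8 FPKM in R1 ESC, 82.0 FPKM without dox, 66.8, 46.2, 60.9 and 58.0 FPKM at 7, 21, 35 and 49 h, 47.1 FPKM at day 6, 36.1 FPKM in Sox17-XEN and 42.6 FPKM in wild-type XEN. All dox and XEN libraries lie below the 2 uninduced ones. Suz12 (ENSMUSG00000017548, mm9 chr11:79806608-79847625), the scaffold of the complex, was at 39.8 FPKM in R1 ESC, 45.2 FPKM without dox, 47.2, 44.0, 51.6 and 54.5 FPKM at 7, 21, 35 and 49 h, 51.2 FPKM at day 6, 45.7 FPKM in Sox17-XEN and 70.7 FPKM in wild-type XEN. Its whole range is 0.81 log2 units, the narrowest of the 10. The sum of Ezh2, Eed and Suz12 ran from 138 FPKM at 21 h to 197 FPKM in wild-type XEN.

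Cbx7 (ENSMUSG00000053411, mm9 chr15:79722089-79801549) stayed at ESC levels through day 6 and was low in the XEN lines. It was at 79.3 FPKM in R1 ESC, 77.7 FPKM without dox, 81.4, 117, 121 and 99.2 FPKM at 7, 21, 35 and 49 h, 86.8 FPKM at day 6, 8.03 FPKM in Sox17-XEN and 0.830 FPKM in wild-type XEN. Day 6 differed from no dox by 0.16 and Sox17-XEN from day 6 by -3.28 log2 units. Where Phf19 was lost by day 6, Cbx7 was not, and its 6.06 log2 units between highest and lowest library are the widest range of the 10.

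The 2 XEN lines differed in Cbx7 by 2.30 log2 units. Sox17-XEN also had 11 of the 12 fibroblast markers higher than wild-type XEN (median 4.41, summed level 745 against 16.7 FPKM), and their part in the difference was not tested. Apobec3, whose row has the same listed locus as Cbx7, was at 4.42 FPKM in Sox17-XEN and 44.5 FPKM in wild-type XEN, opposite in order.

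Cbx2 (ENSMUSG00000025577, mm9 chr11:118884276-118892584), a Cbx protein that compacts chromatin, was low throughout. It was at 5.50 FPKM in R1 ESC, 10.01 FPKM without dox, 8.42, 7.46, 6.71 and 7.46 FPKM at 7, 21, 35 and 49 h, 4.91 FPKM at day 6, 5.99 FPKM in Sox17-XEN and 2.49 FPKM in wild-type XEN. The 2 uninduced ESC lines differ by 0.76 log2 units, the widest gap of the 10 genes there, and enclose all 4 early values. Wild-type XEN was the lowest, and Sox17-XEN stood just past the call above it.

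Among 4 Cbx genes whose proteins join canonical PRC1 (Cbx2, Cbx6, Cbx7 and Cbx8), Cbx7 made up 69.3% to 84.4% of the summed FPKM in the 7 libraries up to day 6, 23.0% in Sox17-XEN and 3.15% in wild-type XEN. In wild-type XEN Cbx6 made up 63.6%, Cbx8 23.8% and Cbx2 9.45%, and in Sox17-XEN Cbx6 made up 40.1%, Cbx8 19.8% and Cbx2 17.1%. The sum was 105 FPKM at day 6, 35.0 FPKM in Sox17-XEN and 26.3 FPKM in wild-type XEN. Cbx8 was at 0.54 and 0.74 FPKM in R1 ESC and without dox, and at 6.92 and 6.28 FPKM in Sox17-XEN and wild-type XEN. The XEN mixture thus comes from less Cbx7 and from more Cbx8, with Cbx6 between 10.5 and 23.7 FPKM in every library.

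**Figure D3:**
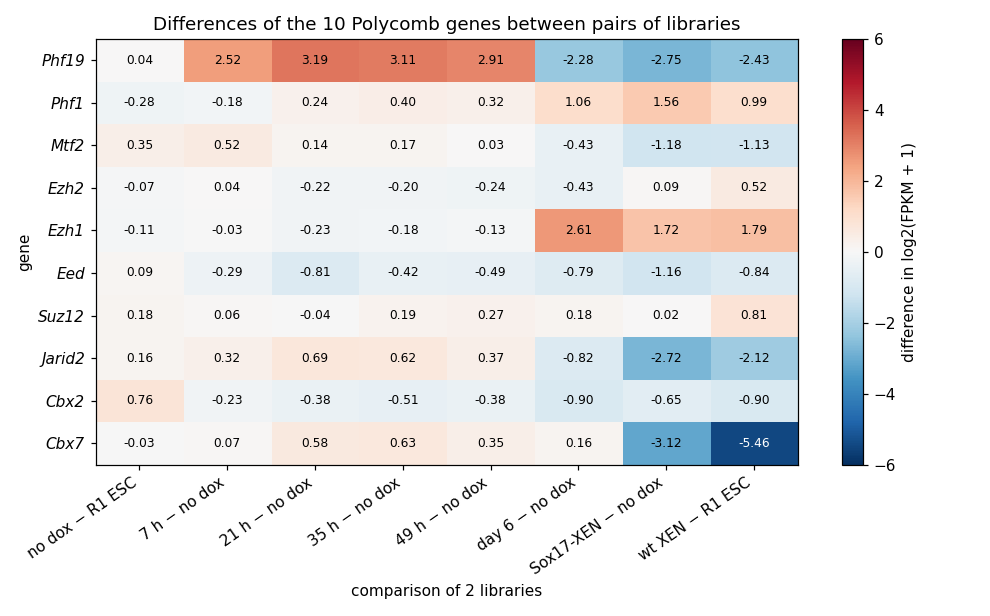
Difference in log2(FPKM + 1) for each of the 10 genes (rows) in 8 comparisons of 2 single libraries (columns); red is higher and blue lower in the library named first. Phf19 alone is past 1 log2 unit from 7 to 49 h, while 7 of the 10 genes are past it in Sox17-XEN.

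By the call, Phf19 was higher than without dox at each early time, which only describes a gene singled out for its early rise. None of the other members was past the call at these times. Of all genes, 3.03%, 5.08%, 4.62% and 5.54% were past the call at these times in order. At day 6, Ezh1 and Phf1 were higher and Phf19 lower, 3 of 10 beside 30.3% of all genes. After rescaling the day 6 split was 1 higher and 4 lower, with Jarid2 (-1.06), Cbx2 (-1.10) and Eed (-1.02) past the call and Phf1 (0.85) short of it, 5 of 10 beside 29.6%. Sox17-XEN against no dox had 2 higher (Ezh1, Phf1) and 5 lower (Cbx7, Phf19, Jarid2, Mtf2, Eed), 7 of 10 beside 35.2%. Wild-type XEN against R1 ESC had 1 higher (Ezh1) and 4 lower (Cbx7, Phf19, Jarid2, Mtf2), 5 of 10 beside 41.7%, and after rescaling 1 higher and 6 lower, 7 of 10 beside 38.1%. Phf1 (0.99) was just short of the call in that comparison. Sox17-XEN against wild-type XEN had Cbx7 and Cbx2 higher, 2 of 10 beside 15.8%. From 49 h to day 6, Ezh1 was higher and Phf19 and Jarid2 lower (25.8% of all genes were called), and from day 6 to Sox17-XEN Cbx7 and Jarid2 were lower (20.4%). The shares at day 6 and in the wild-type pair are near the background before rescaling and above it after, with no test of either. The scale of the libraries differs, with a shift of the common median of 0.24 log2 units at day 6, 0.33 in Sox17-XEN and 0.46 in wild-type XEN against their ESC library.

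The 9 genes other than Phf19 were tested for changes over the dox course. For the 4 early libraries against the 2 uninduced ESC libraries (limma on log2(FPKM + 1), two-sided, Benjamini-Hochberg over 14927 genes), 0 of the 9 passed an adjusted p of 0.05, where 0.375% of all genes did. With so low a share of all genes, 0 of 9 says little about these genes. Eed (-0.46, SE 0.16, adjusted p = 0.210) and Jarid2 were the 2 with an unadjusted p under 0.05. For a slope on the rank of time from no dox to day 6, 0 of the 9 passed in limma and 0 of 14933 genes did, while 3 of the 9 (Phf1, Ezh2 and Cbx2) and 3747 of all genes had an unadjusted p under 0.05. The smallest adjusted p of the 9 was 0.153. With time in hours, which gives day 6 most of the weight, 5 of the 9 passed in limma beside 42.5% of all genes: Ezh1 and Phf1 with upward slopes and Mtf2, Ezh2 and Cbx2 with downward ones. In these fits times and lines stand in for replicates.

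The test of the 2 XEN lines against the 2 uninduced ESC lines (limma, each library as 1 unit) gave changes in 6 of the 10 genes, with 1 risen and 5 fallen. Sox17-XEN and the uninduced Sox17 line both come from line 4J, so the units are not independent, and the fit did not pair them. The fibroblast markers summed to 1062 and 2057 FPKM in R1 ESC and without dox. They summed to 745 and 16.7 FPKM in Sox17-XEN and wild-type XEN, and the part of feeder content in these changes was not tested. Of all 14925 genes 21.5% passed, 11.6% upward and 9.89% downward (1729 and 1476 genes, and 972 and 1860 after rescaling). Ezh1 rose by 1.75 log2 units (SE 0.21, adjusted p = 0.0191). Cbx7 fell by 4.29 (SE 0.84, adjusted p = 0.0397), Phf19 fell by 2.59 (SE 0.24, adjusted p = 0.0171) and Jarid2 fell by 2.42 (SE 0.24, adjusted p = 0.0172). Mtf2 fell by 1.15 (SE 0.23, adjusted p = 0.0423) and Eed fell by 0.999 (SE 0.19, adjusted p = 0.0382). Phf1 had 1.27 (SE 0.30, adjusted p = 0.0560), Suz12 0.42 (adjusted p = 0.332), Ezh2 0.30 (adjusted p = 0.398) and Cbx2 -0.78 (adjusted p = 0.333), none of which passed in limma. The median over the 10 genes was -0.89, and over all genes 0.21. The sign of Ezh2 turned after rescaling (-0.08). The calls rest on having 2 ESC lines: without R1 ESC or without the uninduced Sox17 line 0 genes passed in limma (3572 and 4204 at an unadjusted p under 0.05). With 1 XEN line left out, fewer of the 10 passed than in the full fit, and so did fewer of all genes. Each such fit holds 1 XEN library.

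Of 6 other PRC2 subunit genes, 3 were higher at day 6 by the call, where 30.3% of all genes were past it in either direction, and after rescaling 3 were higher and 1 (Rbbp4) lower, beside 29.6%. In the test of XEN against ESC lines in limma 2 of the 6 rose and 0 fell, where 11.6% of all genes rose and 9.89% fell. The histone-binding subunit gene Rbbp7 rose by 1.36 log2 units (adjusted p = 0.0465), with 134 FPKM without dox, 128 and 499 FPKM at 49 h and day 6, 295 FPKM in Sox17-XEN and 441 FPKM in wild-type XEN. Lcor, which encodes a PRC2-bound protein, rose by 2.48 (adjusted p = 0.0292). The related Lcorl was at 2.39 FPKM without dox and 8.83 FPKM at day 6 (1.54). Rbbp4, the close relative of Rbbp7, was at 195 FPKM without dox and 99.99 FPKM at day 6, a difference of -0.96. At day 6 and in the 2 XEN lines the order of Rbbp7 and Rbbp4 was the reverse of that in the other 6 libraries.

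Of 11 tested canonical PRC1 genes, 2 rose and 1 fell between ESC and XEN lines in limma, a share near the 21.5% of all genes that passed. Cbx8 (2.21, adjusted p = 0.0190) and Bmi1 (2.42, adjusted p = 0.0295) rose and Phc1 (-2.36, adjusted p = 0.0171), a polyhomeotic subunit, fell. Bmi1, a RING-finger partner of Rnf2, was at 2.09 FPKM in R1 ESC, 4.32 FPKM without dox, 5.04, 8.12, 11.7 and 15.5 FPKM at 7, 21, 35 and 49 h, 11.9 FPKM at day 6, 18.6 FPKM in Sox17-XEN and 22.8 FPKM in wild-type XEN. It was past the call at 35 h (1.26) and 49 h (1.63), the only canonical PRC1 gene of the 11 to be so before day 6. Phc1 was at 170 FPKM without dox, 205, 150, 145 and 112 FPKM at 7, 21, 35 and 49 h and 12.5 FPKM at day 6, -3.66 log2 units from no dox.

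Of 17 tested variant PRC1 genes, 2 rose (Yaf2, 1.72, adjusted p = 0.0203, and E2f6, 1.57, adjusted p = 0.0269) and 2 fell (L3mbtl2, -1.19, adjusted p = 0.0302, and Auts2, -2.13, adjusted p = 0.0273) between ESC and XEN lines in limma, again near the 21.5% of all genes. Pcgf5 had the largest difference of the list at day 6 (2.78), at 46.1 FPKM against 5.87 FPKM without dox, and 128 FPKM in wild-type XEN against 30.6 FPKM in Sox17-XEN, and did not pass that test (3.03, adjusted p = 0.0598). Kdm2b, which brings a variant PRC1 to CpG islands, was lower by the call at 35 h (-1.12) and 49 h (-1.06), and at 29.7 FPKM without dox and 32.4 FPKM at day 6. Apart from E130012A19Rik at all 4 early times and Bmi1 and Kdm2b at 35 and 49 h, no gene of these 3 lists was past the call against no dox before day 6. Of all genes only 3.03% to 5.54% were past it at these times, so few calls would fall in lists of this size. Between neighbouring early times E2f6 was past the call, with 13.9 FPKM at 7 h and 30.4 FPKM at 21 h (1.07), beside 26.8 FPKM without dox. In that step 3.12% of all genes were past it.

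**Figure D4:**
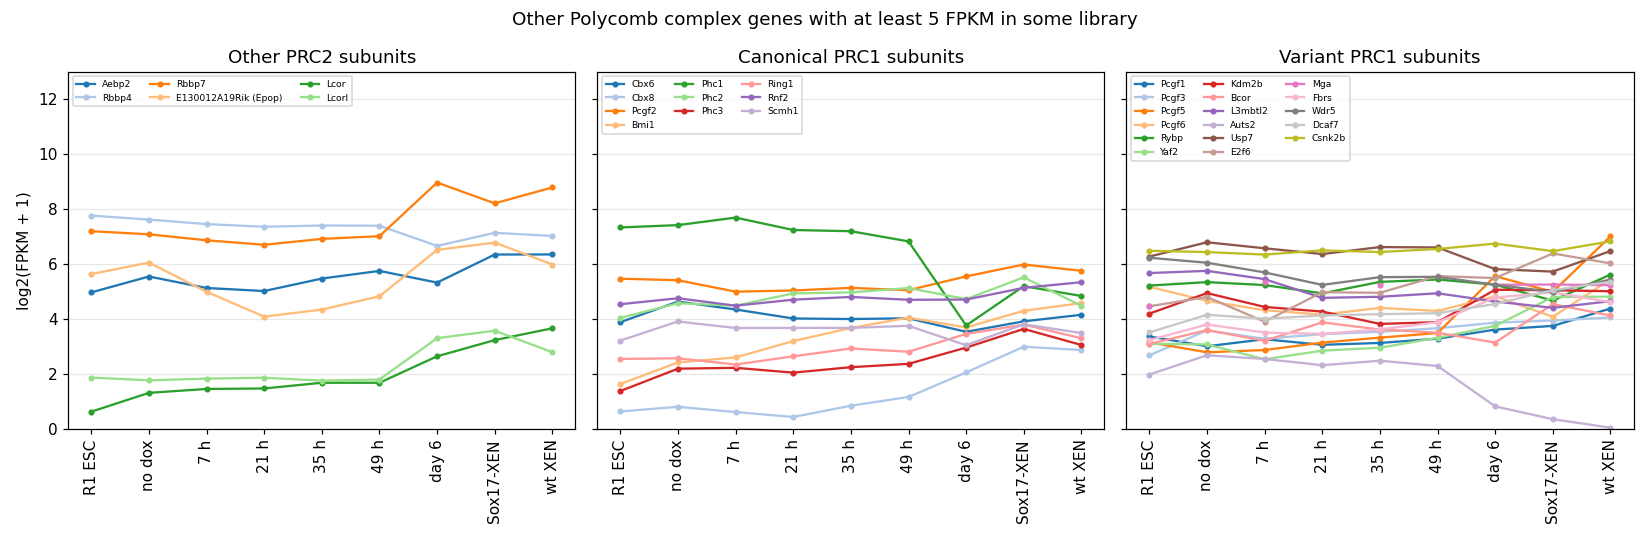
Level on the log2(FPKM + 1) scale of the other PRC2 subunits, the canonical PRC1 subunits and the variant PRC1 subunits with at least 5 FPKM in some library, by library; lines only join the points. Phc1 falls away and Rbbp7 is higher at day 6, E130012A19Rik (Epop) dips from 7 to 49 h, and Bmi1 is higher at 35 and 49 h.

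Enzymes that act with or against Polycomb were compared in the same way, beside the same 21.5% of all genes. Between ESC and XEN lines in limma, the H3K27 demethylase gene Kdm6b rose (2.12, adjusted p = 0.0346) and Kdm6a did not pass. Of 4 H3K36 methyltransferase genes 2 rose, Nsd2, listed as Whsc1 (1.58, adjusted p = 0.0347), and Nsd3, listed as Whsc1l1 (1.73, adjusted p = 0.0383). Of 10 Trithorax methyltransferase genes Mll3 (Kmt2c) rose (1.37, adjusted p = 0.0434) and Dpy30 fell (-1.99, adjusted p = 0.0332), and of 7 genes of the deubiquitinase complex PR-DUB Ogt rose (1.43, adjusted p = 0.0401). None of these 4 lists had a gene past the call from 7 to 49 h, and 0 of their genes passed the early limma test. Of all genes only 3.03% to 5.54% were past the call at these times, and 0.375% passed that test.

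The Hox genes, textbook targets of Polycomb silencing, stayed low. Of 39 Hox genes 16 had a level that allowed a test, the highest value in any library was 7.57 FPKM (Hoxa10 at day 6), and the summed level was 14.9 FPKM in R1 ESC, 26.1 FPKM without dox, 18.0, 20.6, 24.7 and 33.7 FPKM at 7, 21, 35 and 49 h, 35.0 FPKM at day 6, 14.9 FPKM in Sox17-XEN and 4.61 FPKM in wild-type XEN. The fibroblast marker sum was likewise lower at 7 h (1077 FPKM) than without dox (2057 FPKM), higher at each time up to 49 h (2788 FPKM) and lowest in wild-type XEN (16.7 FPKM), but low at day 6 (179 FPKM), and its part in the Hox levels was not tested. At day 6, 2 of the 16 were higher than without dox by the call (Hoxa10 and Hoxd9) and none was lower, under the 30.3% of all genes past the call, and after rescaling 1 was. From 7 to 49 h none was past it, where only 3.03% to 5.54% of all genes were. Hoxd13 fell between ESC and XEN lines (-1.13, adjusted p = 0.0308 in limma), the only one of the 16 to pass, where 21.5% of all genes did. Its levels were low, with 1.51 and 1.46 FPKM in R1 ESC and without dox and 0.300 and 0 FPKM in Sox17-XEN and wild-type XEN.

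The genes whose profile over the 9 libraries lay nearest to that of Phf19 were sought among 8439 genes with at least 10 FPKM in some library, by the root mean square difference of profiles centred on their mean. In order they were Krt42 (0.681 log2 units), Prdm1 (0.703), Cpsf4l (0.782), Ppbp (0.803) and Tfap2c (0.845). Prdm1, which encodes the transcriptional repressor Blimp1, was at 4.41 FPKM without dox, 17.0, 22.8, 16.3 and 13.6 FPKM at 7, 21, 35 and 49 h and 0.440 FPKM at day 6. Tfap2c, a transcription factor of trophoblast and germ cells, was at 22.7 FPKM without dox, 21.4, 52.1 and 1.57 FPKM at 7 h, 21 h and day 6, so it was not yet higher at 7 h. The keratin gene Krt42 was at 15.5 FPKM without dox, 30.2, 96.1 and 0.265 FPKM at 7 h, 35 h and day 6. Cpsf4l shares its listed locus with another row.

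The profiles nearest to Cbx7 were closer, with the brain creatine kinase gene Ckb (0.294) first, followed by Pfkp (0.465), Esrp1 (0.479), Hspb1 (0.517) and Cdh1 (0.536). Ckb was at 136 FPKM without dox, 249 FPKM at day 6, 21.9 FPKM in Sox17-XEN and 3.91 FPKM in wild-type XEN. Cdh1, which encodes E-cadherin, was at 96.8 FPKM without dox, 105 FPKM at day 6, 2.83 FPKM in Sox17-XEN and 1.63 FPKM in wild-type XEN. Esrp1, a splicing regulator of epithelial cells, was at 23.4, 21.2, 1.08 and 0.133 FPKM in the same libraries. Pfkp and Esrp1 share their listed loci with other rows. These are descriptions over 9 libraries that share lines and cultures.

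**Figure D5:**
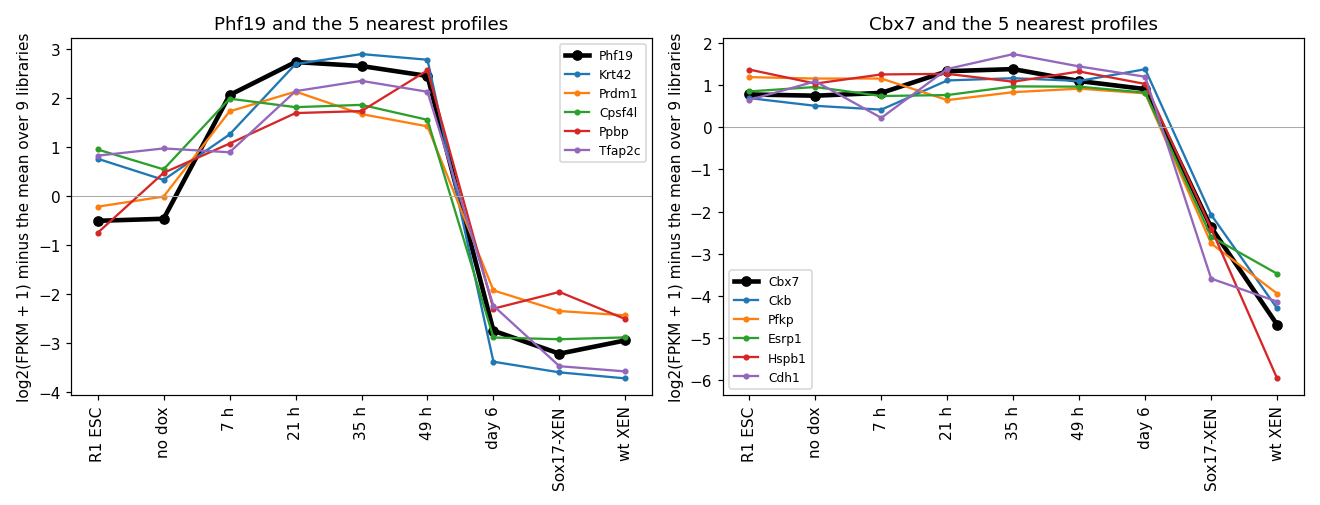
Profiles of Phf19 (left) and Cbx7 (right) with the 5 nearest genes each, as log2(FPKM + 1) minus the gene's mean over the 9 libraries; lines only join the points. The genes near Phf19 are high at 21 to 49 h and low from day 6, and those near Cbx7 are low only in the 2 XEN lines.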

How the data were processed

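RNA of 9 libraries, 1 per group, was sequenced from TruSeq libraries, per the labels' protocols. Cufflinks 2.1.2, TopHat2 2.0.11, Cuffdiff and the mouse build mm9 are named in the submitters' processing notes. The values deposited by the authors are FPKM per gene, with a confidence interval and a status. All 90 values of the 10 genes have the status OK. Read counts were not analysed here, so depth is unknown. Low values put it at 61.6% to 126% of R1 ESC, a rough estimate, since the ratio used was shared by only 16.9% to 25.0% of those values. The listed locus is shared with another row for 6 of the 10 genes (38.9% of all rows). Coordinates are 1-based.

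Values were used as log2(FPKM + 1), and the 15082 genes that reached 1 FPKM in some library were kept. Tests used limma 3.58.1 in R 4.3.3 with a mean trend, two-sided, at an adjusted p (Benjamini-Hochberg) of 0.05, and were tested on simulated data. Libraries were rescaled, as an alternative, by the median ratio of 6670 genes at 5 FPKM or more. Named were all 10 genes, up to 4 genes per list and comparison past 1 log2 unit, and any past 2. The 5 nearest profiles of Phf19 and Cbx7 were also named. The 10 genes and the lists were chosen with earlier results of these data known. Some genes of the lists are not reported here, and counts, sums and shares are over the others. Python 3.11.15 with pandas 2.3.3 was used for the other values.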

Additional observations from a re-analysis of the deposited data

How the results depend on the processing

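No paired analysis was possible because each group has 1 library and the labels give no replicate numbers. No called result reversed under the alternatives tried, which were other pseudocounts, filters, rescaling, a larger difference, the authors' intervals, no mean trend and leaving out each library. With non-overlapping intervals required, 0 of the 10 genes were past 1 log2 unit in each comparison. That count was fixed in advance, since all their lower bounds are 0 and any 2 of their intervals overlap. It says nothing about the calls. With a difference of 2 log2 units, 3 were past it in Sox17-XEN against no dox and in wild-type XEN against R1 ESC, and 1 in Sox17-XEN against day 6 and in Sox17-XEN against wild-type XEN. The share of all genes past 2 log2 units is not given here, so these counts cannot be set against a background. A pseudocount of 5 left 1 in Sox17-XEN against wild-type XEN, and rescaling gave 5 at day 6. With time in hours, 6340 genes and 5 of the 9 members other than Phf19 had a trend; the cause was not tested. Leaving out 1 library moved the early count of 56 genes to between 17 and 1869 (without 21 h or 35 h, and without no dox), and it was 322 without 7 h and 19 without 49 h. The XEN count of 3205 genes went to between 0 (without either ESC line) and 2462 (1935 without wild-type XEN), and its members from 6 to between 0 and 4. A minimum difference of 1 log2 unit left 315 genes and 0 members in that test. In the XEN test by limma, Mtf2 (adjusted p = 0.0589) and Cbx7 (0.0609) did not pass without the filter on low values, nor Cbx7 with a pseudocount of 0.1 (0.0564), and without a mean trend Mtf2 did not pass (0.0532) and Phf1 did (0.0424). From upper bounds the share of Phf19 was 8.76%, 15.8%, 26.3% and 13.96% at 7, 21, 35 and 49 h, and that of Cbx7 72.9%, 69.0% and 70.8% at 35 h, 49 h and day 6 and 24.7% in wild-type XEN. The lower bounds are all 0 and give no share. With 1 library per group and unknown depth, levels under 1 FPKM carry no detection limit.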

Other observations

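A rule set after the values of Phf19 were seen asked how many genes had its course. Of 14933 genes with values in the 6 libraries of the dox course, 17 were at least 2 log2 units above no dox at all 4 early times, and 577 were at least 2 log2 units below it at day 6. Since the rule was written from the course of Phf19, that Phf19 met both parts is no finding. At 1 log2 unit the numbers were 69 and 1904, and the 4 genes other than Phf19 that met both were Prdm1, Cpsf4l, Aard and Mobp.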
